A study of Mus musculus with 12 samples.

Results

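The expression of 9 genes of antigen presentation and dendritic cells was followed across 12 Affymetrix mouse arrays of blood cells. The members are H2-Aa, H2-Ab1, H2-Eb1, H2-DMa, Cd74, Ciita, Batf3, Ccr7 and Flt3l. A gene was taken up through every probe set, the group of oligonucleotides that reports a transcript, to which the array annotation gives exactly 1 symbol equal to the gene's. This rule found 8 of the 9 genes, with 16 probe sets, among 18194 genes on the array. Of these 8 genes, 6 passed the filter on low signals that 10583 genes passed. The only probe set annotated to Flt3l, 1422115_a_at, also carries the symbol of the ribosomal protein gene Rpl13a and gave signals of 6.30 to 51.9, so that no value of Flt3l is reported.

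The arrays fall into 4 groups of 3: Stat5 knockouts with a plus sign in their titles (KO plus), Stat5 knockouts with a minus sign (KO minus), controls with a plus sign (control plus) and controls with a minus sign (control minus). The knockouts are mice whose blood cells lack both Stat5a and Stat5b, and the controls have both genes. By the way their titles are written the arrays split into 3 naming sets (A, B and C), and every set has 1 array of every group. In the submitters' treatment notes the plus arrays were given CMP and the minus arrays were not, but the notes do not say what CMP is, and in the titles of sets A and C the letters stand on plus and minus arrays alike. Strain, age, the driver of the deletion, the kind of blood cell and whether arrays of a group stem from separate animals are not given in the sources used here, so the p-values measure only the spread between these arrays. The KO minus array of set B is called a control in its treatment note and a knockout in its title, and it was grouped by its title.

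The signals of Stat5a were 28.9 to 90.1 in the 6 knockout arrays and 660 to 1436 in the 6 control arrays, without overlap, and the array with conflicting labels lay among the knockouts. All arrays had been scaled to the same trimmed mean of 500, with medians of 59.7 to 114. The ratio of the 3′ to the 5′ probe set of beta-actin, a gauge of RNA and label integrity, was 1.41 to 54.8 in KO plus, 1.19 to 26.5 in KO minus, 1.85 to 33.4 in control plus and 1.23 to 19.7 in control minus arrays. It was highest in the 4 arrays of set B, and within each set and genotype it was higher in the plus array, in 6 of 6 pairs.

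MHC class II molecules display peptides from engulfed proteins to helper T cells. An alpha and a beta chain, such as H2-Aa with H2-Ab1, assemble on the invariant chain Cd74, which blocks the groove until the H2-DM dimer exchanges its remnant for a peptide. Their genes share a promoter module, in which the X box binds the RFX complex and the Y box binds NF-Y, and the coactivator Ciita, which docks on these factors, sets the level of transcription. Dendritic cells, B cells and macrophages are the usual class II cells of the blood-forming system. Flt3l is the growth factor of dendritic cell precursors, Batf3 is a factor needed by cross-presenting dendritic cells, and Ccr7 is the chemokine receptor that guides mature dendritic cells to lymph nodes.

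The promoters of H2-Aa, H2-Eb1 and Batf3 are shown because the first pair differed from the peptide-loading gene H2-DMa in how they varied between arrays, and Batf3 had the largest difference between plus and minus arrays among the members. RefSeq promoters of GRCm38.p6, from 250 bases before to 50 bases after the start site, were matched for 5 of the 9 members: H2-Aa, H2-Eb1, H2-DMa, Batf3 and Flt3l. H2-Ab1, Cd74, Ciita and Ccr7 had no entry. The H2-Aa window lies on the minus strand at chr17:34287774-34288073, the H2-Eb1 window on the plus strand at chr17:34305617-34305916, and the Batf3 window on the plus strand at chr1:191098164-191098463. Capitals mark the X box core GCAAC and the Y box CTGATTGG in the class II promoters, and in Batf3 the letters TTCNNNGAA, the spacing of STAT binding motifs. The sequences run 5′ to 3′ on the strand of the gene.
H2-Aa: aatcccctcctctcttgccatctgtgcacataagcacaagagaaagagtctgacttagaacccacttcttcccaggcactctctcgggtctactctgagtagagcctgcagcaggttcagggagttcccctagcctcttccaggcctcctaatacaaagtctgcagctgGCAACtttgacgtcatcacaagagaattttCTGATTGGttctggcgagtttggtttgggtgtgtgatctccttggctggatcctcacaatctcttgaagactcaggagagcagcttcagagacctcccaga
H2-Eb1: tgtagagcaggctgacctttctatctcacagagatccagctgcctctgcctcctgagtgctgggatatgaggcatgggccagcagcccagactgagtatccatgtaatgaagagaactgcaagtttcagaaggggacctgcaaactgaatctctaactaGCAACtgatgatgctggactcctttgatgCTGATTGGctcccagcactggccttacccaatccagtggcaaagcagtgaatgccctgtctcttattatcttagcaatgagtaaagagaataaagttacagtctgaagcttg
Batf3: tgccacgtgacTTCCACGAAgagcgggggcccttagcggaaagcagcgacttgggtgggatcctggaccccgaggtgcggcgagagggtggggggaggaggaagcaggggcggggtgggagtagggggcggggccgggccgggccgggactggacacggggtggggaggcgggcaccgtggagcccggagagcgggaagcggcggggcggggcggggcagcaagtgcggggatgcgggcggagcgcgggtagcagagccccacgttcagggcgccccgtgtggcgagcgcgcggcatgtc

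Both class II promoters hold the X box core upstream of the Y box on the strand of the gene. In H2-Aa the motifs begin at -81 and -51 from the start site with 25 bases between them, and in H2-Eb1 they begin at -91 and -62 with 24 bases between them. All motifs were searched on both strands. Alone, the letters GCAAC occurred in 35.2% and CTGATTGG in 4.1% of 32851 RefSeq promoter windows of this length. The ordered pair with at most 60 bases between the motifs occurred in 77 windows, or 0.234%, and in 42 of these on the strand of the gene. In H2-Aa the letters TGACGTCA, a cyclic AMP response element that no other searched motif overlaps there, begin at -74 and were present in 1.79% of windows. H2-DMa has 2 windows, of which one holds GCAAC on the opposite strand at -7 and neither holds CTGATTGG. Both windows lie inside the span that RefSeq gives the gene, chr17:34119693-34139101. The rest of that span was not searched, so these windows do not show whether H2-DMa has the pair of motifs. The STAT spacing in Batf3 begins at -239 and was present in 8.3% of windows. These matches are descriptions of letters, and no binding was measured.

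The chains that form the class II dimer on the cell surface varied mostly between naming sets. H2-Aa, an alpha chain, gave signals of 1526, 3069 and 3184 in the KO plus arrays of sets A, B and C, and 1047, 2087 and 3853 in KO minus. The controls gave 965, 1703 and 4304 in plus and 598, 1645 and 4583 in minus arrays. Set C was highest in each group and set A lowest, and the 4 groups overlapped throughout. The difference between plus and minus arrays, on the scale of log2(signal + 32), was 0.27 ± 0.28 in knockouts (standard error of the fit over 3 arrays a group; limma adjusted p = 0.543) and 0.21 ± 0.28 in controls (adjusted p = 0.642). H2-Eb1, a beta chain, gave 220, 193 and 935 in KO plus and 202, 240 and 1070 in KO minus arrays. The controls gave 179, 325 and 1069 in plus and 126, 109 and 1166 in minus arrays. Here too the array of set C stood above both others in every group, and the groups overlapped. Its difference was -0.12 ± 0.28 in knockouts (adjusted p = 0.795) and 0.55 ± 0.28 in controls (adjusted p = 0.184).

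H2-Ab1, the beta chain that pairs with H2-Aa, fell in the plus arrays of the knockouts. Its signals were 374, 500 and 812 in KO plus arrays, against 797, 679 and 1705 in KO minus arrays. In controls they were 389, 393 and 894 in plus arrays, against 510, 485 and 1532 in minus arrays. The plus array was lower than its minus partner in every set and genotype, while the plus array of set C lay above minus arrays of the other sets. The log2 difference was -0.83 ± 0.22 in knockouts (SE; limma adjusted p = 0.0210) and -0.47 ± 0.22 in controls (adjusted p = 0.140). A gene is called where its Benjamini-Hochberg adjusted p over all genes is under 0.05. The call of H2-Ab1 in knockouts was lost when 1 array was left out in 4 cases: -0.78 without KO plus A (adjusted p = 0.0706), -0.69 without KO plus C (0.0928), -0.74 without KO minus A (0.0888) and -0.83 without KO minus C (0.0809). It was also lost without set A (0.190), without set C (0.249) and with the naming set as a random block (0.0541).

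H2-DMa, a chain of the dimer that loads peptides, had the clearest difference within the class II genes. It gave signals of 1002, 1221 and 636 in KO plus arrays, against 2200, 2614 and 2157 in KO minus arrays. In controls it gave 1186, 633 and 711 in plus arrays, against 1914, 2818 and 1649 in minus arrays. In both genotypes every plus array lay below every minus array, and set C did not stand out. The mean signal was 953 ± 296 in KO plus and 2324 ± 252 in KO minus arrays, and 843 ± 299 in control plus and 2127 ± 613 in control minus arrays (SD, n = 3). H2-DMa fell by 1.30 ± 0.26 on the log2 scale in knockouts (SE; limma adjusted p = 0.00623), which is 2.46-fold, and by 1.32 ± 0.26 in controls (adjusted p = 0.00464), which is 2.49-fold. It kept both calls when any single array was left out, and lost them without the whole of set C (adjusted p = 0.133 in knockouts and 0.0584 in controls).

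Cd74, the invariant chain, rose in the plus arrays of the knockouts, where H2-Ab1 and H2-DMa fell. Its signals were 441, 872 and 956 in KO plus arrays, against 99.5, 269 and 718 in KO minus arrays. In controls they were 392, 419 and 1059 in plus arrays, against 98.3, 197 and 861 in minus arrays. The plus array was the higher one in all 6 pairs, and set C gave the smallest difference in both genotypes. The log2 difference was 1.28 ± 0.35 in knockouts (SE, n = 3; limma adjusted p = 0.0259) and 0.99 ± 0.35 in controls (adjusted p = 0.0615). By set it was 1.85, 1.59 and 0.40 in knockouts and 1.70, 0.98 and 0.29 in controls.

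In each genotype the differences of Cd74 and of the beta-actin ratio were both largest in set A and smallest in set C. Between plus and minus arrays that ratio differed by 1.63, 1.05 and 0.24 log2 units in the knockouts of sets A, B and C, and by 1.35, 0.76 and 0.59 in the controls. Within set C the ratio differed more in controls and Cd74 more in knockouts. With the ratio as a covariate Cd74 was at 0.23 in knockouts (limma adjusted p = 0.727) and 0.022 in controls (adjusted p = 0.973), while H2-DMa was at -1.83 and -1.81 and kept its calls. Batf3 kept its call in controls in that fit (2.32, adjusted p = 0.0255), and H2-Ab1 in knockouts did not (-1.01, adjusted p = 0.0904). The ratio was higher in the plus array of every pair, so this fit cannot separate it from the plus label. Whether it accounts for the difference of Cd74 was not tested. Leaving out 1 array also ended the call of Cd74 in knockouts in 5 cases: 1.12 without KO plus A (adjusted p = 0.0845), 1.01 without KO plus B (0.0830), 1.05 without KO minus A (0.107), 1.34 without KO minus B (0.0698) and 1.44 without KO minus C (0.0558). So did leaving out set A (0.99, 0.172) or set B (1.12, 0.0701). In controls Cd74 passed at 0.99 without KO plus B (0.0345) or KO plus C (0.0325), and at 1.35 without control minus C (0.0356).

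**Figure D1:**
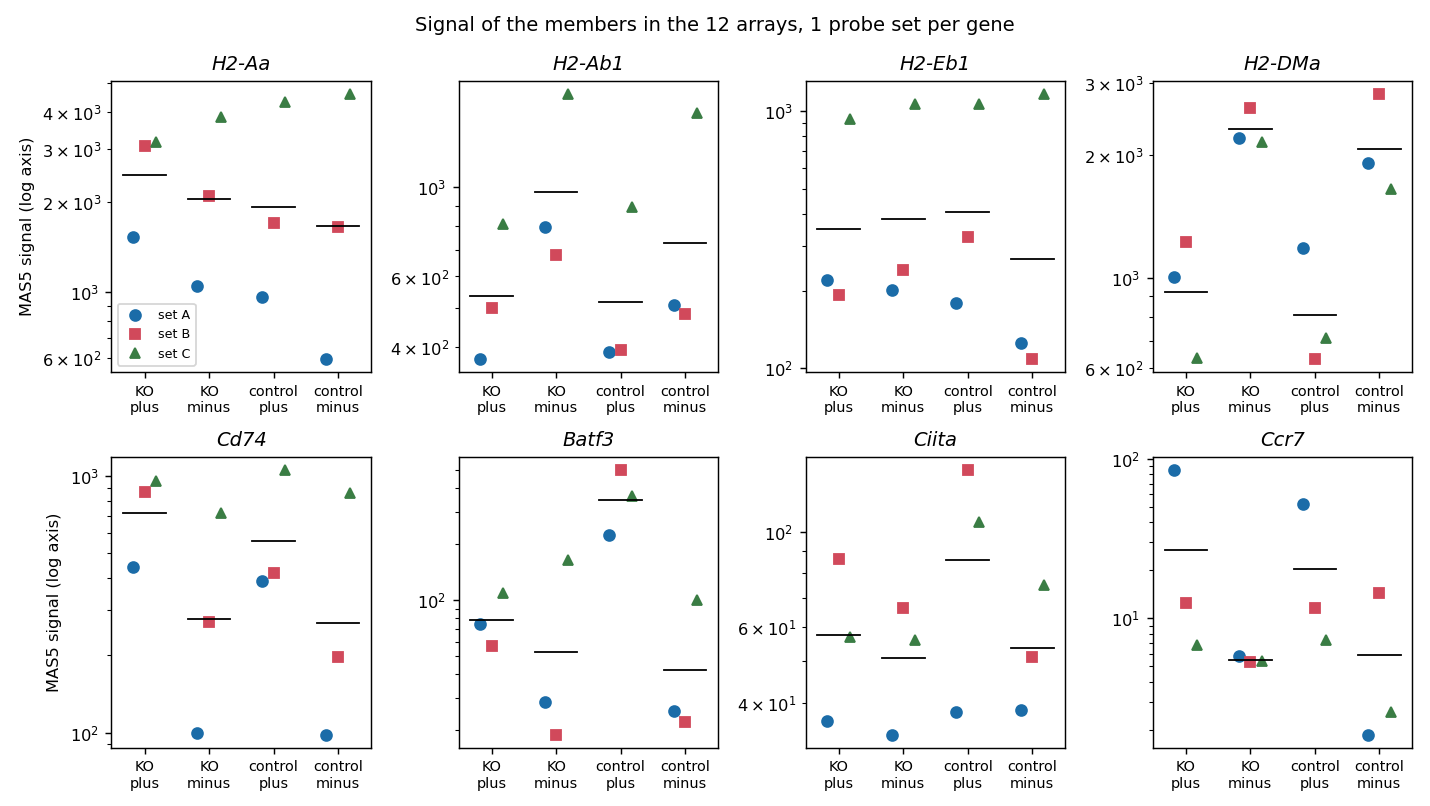
MAS5 signal (log axis, a separate scale for each gene) of the 8 genes in KO plus, KO minus, control plus and control minus arrays, with 1 point per array shaped by naming set and a bar at the geometric mean of a group. H2-DMa separates plus from minus arrays in both genotypes, H2-Aa and H2-Eb1 follow the naming set, and Batf3 is highest in the 3 control plus arrays.

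Batf3, a basic leucine zipper factor, rose in the plus arrays of the controls. It gave 74.9, 57.1 and 109 in KO plus arrays and 28.2, 19.0 and 166 in KO minus arrays. In controls it gave 223, 503 and 366 in plus arrays, against 25.4, 22.1 and 99.9 in minus arrays. The 3 control plus arrays lay above all 9 others, and the KO plus arrays overlapped the KO minus arrays. The log2 difference between plus and minus arrays was 0.38 ± 0.38 in knockouts (SE, n = 3; limma adjusted p = 0.517), with 0.83, 0.81 and -0.48 in sets A, B and C. In controls it was 2.35 ± 0.38 (adjusted p = 0.00176), with 2.15, 3.31 and 1.59 in the 3 sets.

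Set against control plus arrays, Batf3 was at -1.78 ± 0.38 in KO plus arrays (unadjusted p = 0.000587, limma adjusted p = 0.470), and lower in 3 of 3 sets (-1.26, -2.59 and -1.49). The difference between the plus effects of the genotypes was -1.97 ± 0.54 log2 units, with a 95% interval of -3.15 to -0.79 (unadjusted p = 0.00350, limma adjusted p = 0.954), at -1.33, -2.50 and -2.08 in the sets. Neither passed the adjustment over all genes. Batf3 passed the filter on low signals only through the control plus arrays, since its mean log2 value was 6.99 over all arrays and 6.47 without them, against a limit of 6.76. Its low signals in the other groups make the size depend on the added constant: the difference in controls was 3.13 with a constant of 1 and 1.63 with 100.

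The coactivator Ciita and the receptor Ccr7 lay below the filter and were tested only in a fit over all 34958 probe sets with 1 symbol. The brightest of the 3 Ciita probe sets gave 36.4, 86.2 and 56.9 in KO plus, 33.8, 66.6 and 55.9 in KO minus, 38.1, 139 and 105 in control plus and 38.6, 51.2 and 75.0 in control minus arrays. Its signals overlapped in all groups and were below the array's median in 9 of 12 arrays, and the other 2 probe sets were below it in all 12. In that fit it was at 0.11 ± 0.27 in knockouts (limma adjusted p = 0.889) and 0.46 ± 0.27 in controls (adjusted p = 0.350) between plus and minus arrays. Ccr7 gave 85.3, 12.6 and 6.80 in KO plus, 5.81, 5.30 and 5.38 in KO minus, 52.2, 11.7 and 7.33 in control plus and 1.87, 14.5 and 2.58 in control minus arrays. Only the KO plus array of set A lay above its array's median, the KO plus arrays lay above the KO minus arrays, and plus and minus arrays overlapped in controls. Its difference was 0.65 ± 0.32 in knockouts (adjusted p = 0.289) and 0.47 ± 0.32 in controls (adjusted p = 0.430). Signals this low limit what a comparison can show, since MAS5 values far below the median carry large relative error.

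**Figure D2:**
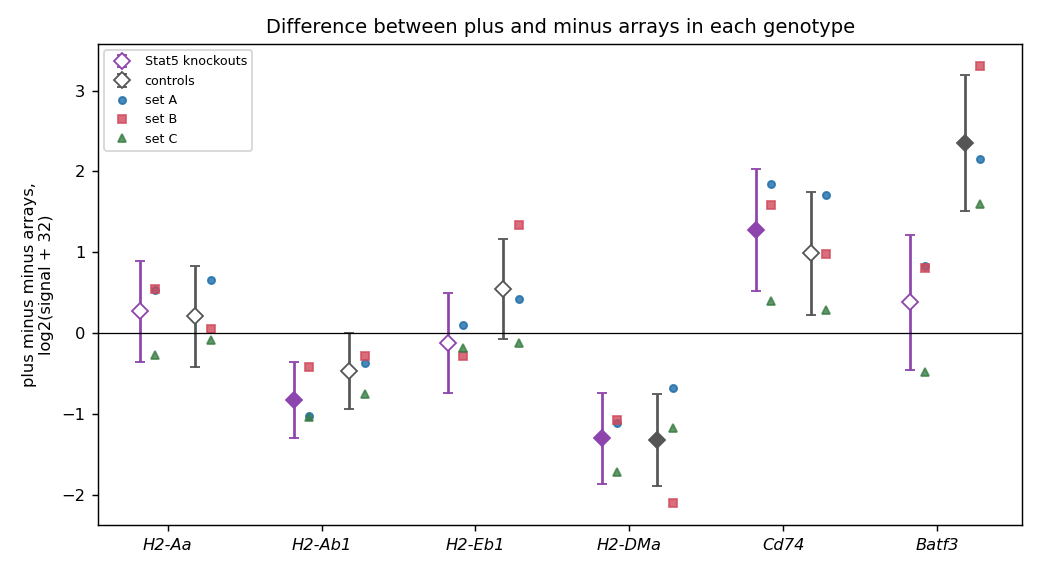
Log2 difference between plus and minus arrays for the 6 genes past the filter, with the estimate for knockouts left of that for controls (diamonds, filled where the adjusted p is under 0.05; bars are 95% intervals) and the 3 naming sets as small points. H2-DMa is near -1.3 in both genotypes, and Batf3 is at 0.38 in knockouts and 2.35 in controls.

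Of the 6 members tested, 1 was called higher and 2 lower in plus arrays of the knockouts, where 9.03% of all 10583 genes were called higher and 9.72% lower. In controls 1 was called higher and 1 lower, where 10.6% of genes were called higher and 11.6% lower. The median change of the members was 0.074 in knockouts and 0.38 in controls, beside -0.062 and -0.023 over all genes. Both comparisons came from the same limma fit. Batf3, the member called higher in controls, passed the filter on low signals only through the control plus arrays. The counts and medians of the members are therefore descriptions. With each array centred on its median, the median over all genes was -0.13 in knockouts and -0.22 in controls, and 37.5% of the calls in knockouts and 27.8% of those in controls were higher, against 48.2% and 47.7% as deposited. H2-DMa and Batf3 kept their direction and calls there, as did H2-Ab1 (-0.89, limma adjusted p = 0.0216) and Cd74 (1.21, 0.0327) in knockouts. Without the naming set as a block, no member was called in knockouts (adjusted p = 0.0560 for H2-DMa, 0.411 for Cd74 and 0.452 for H2-Ab1), while H2-DMa (0.0420) and Batf3 (0.0267) were called in controls.

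Between knockouts and controls no member was called, neither in plus nor in minus arrays, where 0.0189% of genes were called in each comparison. At an unadjusted p under 0.05 there was 1 of 6 members, Batf3, in plus arrays and 0 in minus arrays in the limma fit, beside 9.81% and 2.36% of all genes. Batf3 passed the filter only through the control plus arrays, which enter the comparison in plus arrays and the difference between the plus effects. Its counts in both are therefore descriptions. Apart from Batf3 the differences in plus arrays were -0.20 (H2-Eb1) to 0.35 (H2-Aa), and in minus arrays the 6 members were at 0.052 (Cd74) to 0.47 (H2-Eb1). The 95% interval for H2-DMa was -0.39 to 0.74 in plus arrays and -0.41 to 0.72 in minus arrays, and that for Cd74 was -0.42 to 1.10 in plus arrays. No member was called in the difference between the plus effects, where 0% of genes were called in the limma fit (1 member, Batf3, and 223 genes at an unadjusted p under 0.05). The plus comparison and the knockout comparison share arrays and are not independent.

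The probe sets of a gene did not always agree in their calls. All 16 probe sets were tested in the fit without a filter, where 5.96% of probe sets were called in knockouts and 8.09% in controls. In knockouts 3 of the 16 were called, all lower in plus arrays: H2-Ab1 1425477_x_at at -1.13 ± 0.28 (SE; limma adjusted p = 0.0376), H2-Ab1 1450648_s_at at -0.83 ± 0.21 (0.0408) and H2-DMa 1422527_at at -1.30 ± 0.26 (0.0128). The third probe set of H2-Ab1, 1451721_a_at, was at -0.98 ± 0.36 (0.148), so the gene's 3 probe sets had the same sign. The second probe set of H2-DMa, 1459872_x_at, was at -0.70 ± 0.28 (0.179) in knockouts and -0.84 ± 0.28 (0.0890) in controls, with the sign of the first. In this fit the only probe set of Cd74 was at 1.28 in knockouts (0.0534) and was not called, and in controls the calls were Batf3, higher (0.00461), and H2-DMa 1422527_at, lower (0.00946). The 4 probe sets of H2-Aa were at -0.023 to 0.27 in knockouts and -0.051 to 0.47 in controls, none called. H2 genes are close relatives, and the probe sets ending in _x_at or _s_at can bind transcripts of more than 1 of them.

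H2-Aa, H2-Ab1, H2-Eb1 and Cd74 shared a high level in naming set C. Over the 4 arrays of a set, the mean signal of H2-Eb1 was 181 (A), 217 (B) and 1060 (C). In log2 units set C lay above set A by 2.37 for H2-Eb1, 1.97 for H2-Aa, 1.93 for Cd74 and 1.20 for H2-Ab1, and above set B by 2.21, 0.93, 1.17 and 1.17. H2-DMa did not follow, with -0.40 against set A and -0.45 against set B. All 9 probe sets of the first 4 genes were higher in set C than in both other sets, and both probe sets of H2-DMa were lower. What the sets stand for is not stated, and set and any shared extraction, sort or hybridisation cannot be told apart.

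**Figure D3:**
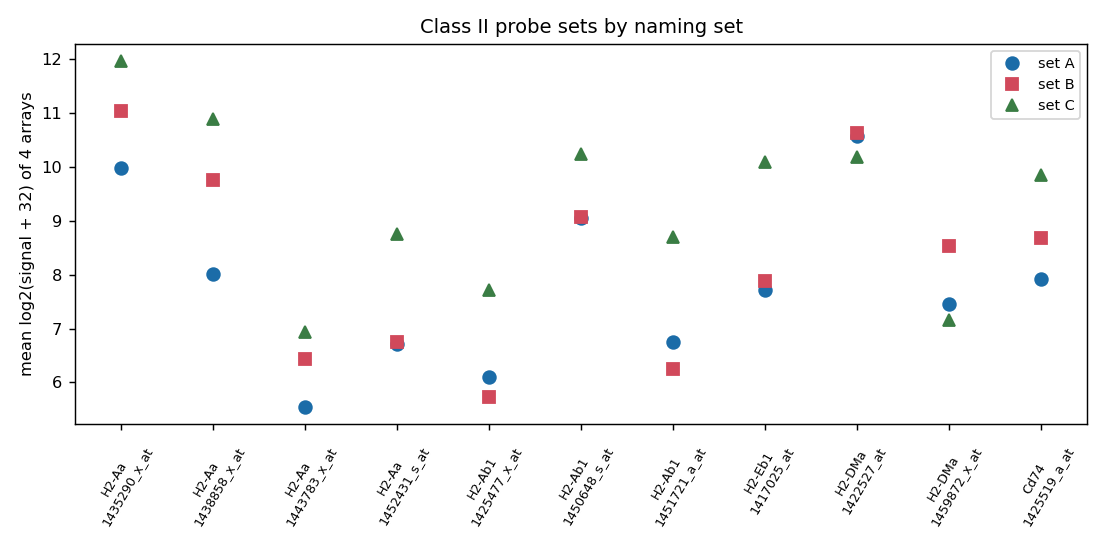
Mean log2(signal + 32) over the 4 arrays of naming sets A, B and C for the 11 class II probe sets, each read against its own column only. Set C is highest in the 9 probe sets of H2-Aa, H2-Ab1, H2-Eb1 and Cd74, and lowest in both of H2-DMa.

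Across the 12 arrays the log2 signals of H2-Aa correlated with those of Cd74 (Pearson r = 0.866) and H2-Eb1 (0.819), and those of H2-Ab1 with H2-Eb1 (0.793). H2-Ab1 and Cd74, which differed in opposite directions between plus and minus arrays, correlated at 0.374. H2-DMa was at -0.587 with Cd74 and -0.747 with Batf3. These values describe 12 arrays that share naming sets and groups. The 8 other genes whose log2 signal was most like the mean of H2-Aa, H2-Ab1, H2-Eb1 and Cd74 over the 12 arrays were Insr (r = 0.910), Dnajc3 (0.874), Eif4b (0.850), Cstf3 (0.847), Cyba (0.844), Amotl2 (0.839), Ctsh (0.831) and Pgr (0.829). They were chosen by this likeness, which also fixes their high level in set C.

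Among 10 tested genes of class II loading and close relatives, 3 were called higher and 3 lower in KO plus arrays, and 1 higher and 1 lower in control plus arrays. The list's median was -0.30 in knockouts and -0.11 in controls. Of all genes 9.03% were called higher and 9.72% lower in knockouts, and 10.6% and 11.6% in controls, where the list's counts were near that share. The legumain gene Lgmn, a lysosomal protease, rose by 1.58 ± 0.26 in knockouts (SE; limma adjusted p = 0.00213), the cathepsin Ctsl, which trims the invariant chain in some cells, by 1.24 ± 0.24 (0.00508) and the cathepsin Ctsb by 0.63 ± 0.16 (0.0185). H2-Oa, a chain of the H2-O dimer that restrains H2-DM, fell by 1.10 ± 0.25 (0.0110). H2-Oa gave 349, 344 and 232 in KO plus arrays, against 542, 1120 and 530 in KO minus arrays, with no overlap. H2-Ob, the partner of H2-Oa, and H2-DMb2, a beta chain of H2-DM, were the other genes lower, at -1.51 (0.0200) and -0.84 (0.0418), and are named after their values were seen. H2-Ob gave 1386, 212 and 409 in KO plus arrays, against 1596, 1748 and 1193 in KO minus arrays. Its KO plus array of set A lay above the KO minus array of set C. In controls Ctsl was at 0.87 ± 0.24 (0.0218) and H2-Oa at -0.92 ± 0.25 (0.0207). Ctss, the main protease that trims the invariant chain in dendritic and B cells, was at -0.010 in knockouts and -0.15 in controls and was not called. H2-Ea, the alpha chain that pairs with H2-Eb1, was below the array median in all 12 arrays.

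Of 11 factors that act at class II promoters, 1 was called higher in KO plus arrays and 3 in control plus arrays, and none lower, with medians of 0.18 in knockouts and 0.33 in controls. Kat2b, a histone acetyltransferase, was at 1.32 ± 0.19 in knockouts (SE; limma adjusted p = 0.00122) and 0.75 ± 0.19 in controls (0.0186). The other 2 called in controls were the acetyltransferases Ep300 at 0.60 (0.0389) and Crebbp at 0.57 (0.0467). All 3 called genes are general coactivators, and none of the RFX and NF-Y genes of the list was called. Of 10 genes that act upstream of Ciita, the kinase Jak2 alone was called in knockouts (0.61 ± 0.16, adjusted p = 0.0210). In controls Jak2 (0.66), the repressor Prdm1 (1.47, past the filter only through the plus arrays) and Irf2 (0.89) were called higher and Ifngr1, a chain of the interferon gamma receptor, lower (-1.36 ± 0.25, adjusted p = 0.00312). Irf8, a factor needed for dendritic cell and monocyte development, was not called in either genotype, at -0.47 in knockouts and -0.80 in controls. Beside the counts of these 2 lists, 9.03% of all genes were called higher and 9.72% lower in knockouts, and 10.6% and 11.6% in controls.

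Of 16 tested genes of dendritic cell identity, 2 were called higher and 1 lower in KO plus arrays, and 2 higher and 2 lower in control plus arrays, with medians of -0.27 and -0.11. Over all genes the shares called were 9.03% higher and 9.72% lower in knockouts and 10.6% and 11.6% in controls, so that these counts lie near the background. Relb, an NF-kB subunit of maturing dendritic cells, gave 2061, 133 and 508 in KO plus arrays, against 62.4, 90.3 and 50.1 in KO minus arrays. In controls it gave 2565, 483 and 402 in plus arrays, against 62.4, 38.3 and 59.5 in minus arrays, so that plus arrays lay above minus arrays in both genotypes and set A was highest among the plus arrays. Relb rose by 2.54 ± 0.61 log2 units in knockouts (SE; limma adjusted p = 0.0156) and 3.30 ± 0.61 in controls (0.00348). It passed the filter only through the plus arrays (mean log2 value 9.43, and 6.51 in minus arrays), and its size was 2.97 with a constant of 1 and 2.02 with 100 in knockouts, and 3.90 and 2.59 in controls. Id2, an inhibitor of helix-loop-helix factors, rose by 0.87 in knockouts and 0.92 in controls. Wdfy4, needed for cross-presentation, fell in both, by 0.87 and 0.73, and Bcl11a, a factor of plasmacytoid dendritic and B cells, fell in controls by 1.37. Flt3, the receptor of Flt3l, gave 2570, 2590 and 1591 in KO plus, 2509, 2522 and 2417 in KO minus, 1648, 977 and 1119 in control plus and 1846, 1490 and 2520 in control minus arrays, and was not called in any comparison. The chemokine receptor Xcr1 of cross-presenting dendritic cells and the lectin Siglech of plasmacytoid cells were below the array median in at least 11 of 12 arrays.

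Ccr7 is one of the genes that dendritic cells raise as they mature. Of 16 other such genes tested, 6 were called higher and 0 lower in KO plus arrays, and 7 higher and 0 lower in control plus arrays. The medians of the list were 0.58 in knockouts and 0.91 in controls. Over all genes 9.03% were called higher and 9.72% lower in knockouts, and 10.6% and 11.6% in controls. Relb is counted in the list of dendritic cell identity too. Cd83, a surface marker of maturation, gave 531, 235 and 283 in KO plus arrays, against 23.6, 52.8 and 33.8 in KO minus arrays. In controls it gave 431, 263 and 492 in plus arrays, against 9.36, 10.1 and 48.4 in minus arrays. The plus and minus arrays did not overlap in either genotype, and the differences were 2.42 ± 0.36 in knockouts (SE; limma adjusted p = 0.00122) and 3.0 ± 0.36 in controls (0.000300). Cd83 passed the filter only through the plus arrays, with a mean log2 value of 8.60 there and 5.89 in minus arrays. Its size therefore depends on the added constant, at 3.20 with 1 and 1.67 with 100 in knockouts, and at 4.42 and 2.0 in controls, and in the fit over all genes without a filter it was called too (adjusted p = 0.00252 and 0.000643). Of the calls in this list, those of Cd83 and Relb came from genes that passed only through the plus arrays. Cd40, Pdcd1lg2 and Socs2, which were not called, also passed only through those arrays. The counts and medians are therefore descriptions. The costimulatory ligand Tnfsf4 was at 1.76 and 1.82, and the signalling adaptor Traf1 at 2.45 and 3.0. Marcks, an actin regulator, was called at 1.92 in knockouts and 1.15 in controls. These genes are also raised by other activated blood cells.

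**Figure D4:**
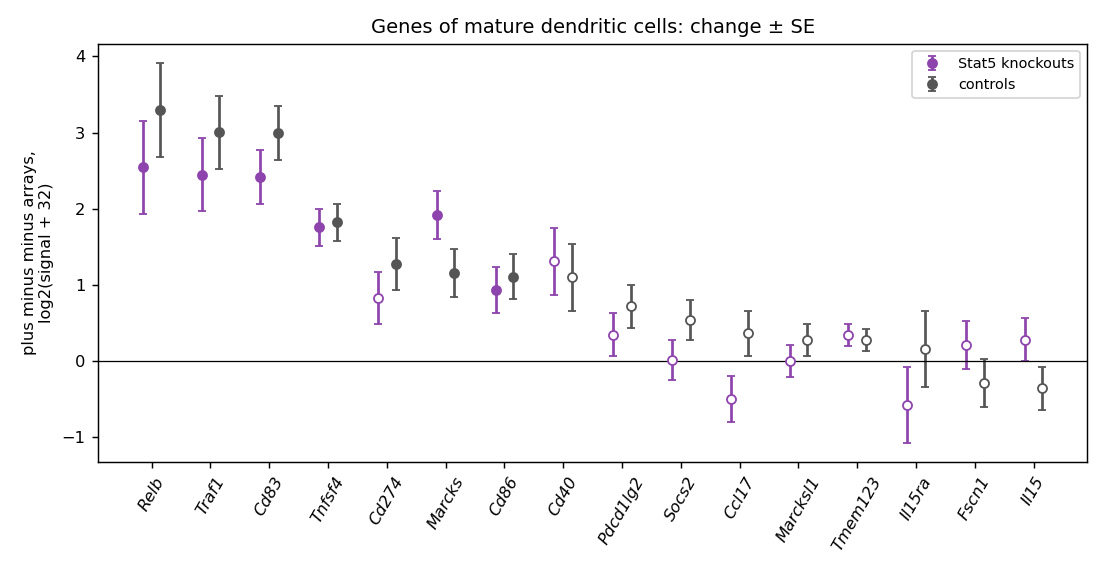
Log2 difference between plus and minus arrays (± SE, filled where the adjusted p is under 0.05) for the 16 tested genes of mature dendritic cells, with knockouts left of controls. Cd83, Traf1, Tnfsf4, Relb, Marcks and Cd86 are filled in both genotypes. The last genes on the right are not filled: Il15ra (-0.58 in knockouts and 0.16 in controls), Fscn1 (0.21 and -0.29) and Il15 (0.28 and -0.36). Ccl17, not filled either, is at -0.50 in knockouts and 0.36 in controls.

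MHC class I, which presents peptides made in the cytosol, was listed beside class II. Of 14 genes of class I and its loading, 3 were called lower and 0 higher in plus arrays of each genotype, with medians of -0.66 in knockouts and -0.41 in controls. They were the immunoproteasome subunits Psmb8 (-1.37 in knockouts and -1.42 in controls), Psmb9 (-1.37 and -1.49) and Psmb10 (-1.36 and -1.46), with limma adjusted p = 0.000743 to 0.00125 in knockouts and 0.000474 to 0.000747 in controls. The share of all genes called lower was 9.72% in knockouts and 11.6% in controls.

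Batf3 acts as a dimer with JUN proteins. Of 7 tested genes of BATF and JUN partners, 1 was called higher and 2 lower in plus arrays of each genotype, with medians of -0.47 in knockouts and -0.80 in controls. Jun gave 1379, 21.7 and 1152 in KO plus arrays, against 10819, 6022 and 9071 in KO minus arrays, and it fell by 4.23 ± 0.66 log2 units (SE; limma adjusted p = 0.00162). In controls it gave 1121, 266 and 969 in plus arrays, against 11363, 8769 and 10855 in minus arrays, and it fell by 3.88 ± 0.66 (0.00221). Plus arrays lay below minus arrays without overlap in both genotypes. Jund fell by 1.58 and 1.41, and Jdp2, a repressor of AP-1 sites, was called higher at 1.45 and 1.92. Of 11 tested genes of the Flt3l and Ccr7 pathways, Ackr4, a scavenger of the Ccr7 ligands, was called higher in knockouts (1.27) and controls (1.12) but passed the filter only through the plus arrays (mean log2 value 7.68, and 6.48 in minus arrays). The growth factor Csf1 (2.14) and the G protein subunit Gnai3 (0.48) were called higher in controls. For both lists, the shares over all genes were 9.03% higher and 9.72% lower in knockouts, and 10.6% and 11.6% in controls. Of the 139 tested genes of all 14 lists, 0 were called between knockouts and controls or in the difference between plus effects in the limma fit. At an unadjusted p under 0.05 there were 24 in plus arrays, 8 in minus arrays and 5 in that difference, beside 9.81%, 2.36% and 2.11% of all 10583 genes. Whether the changes in these lists follow the beta-actin ratio was not tested.

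Markers of the cell types that carry class II lay partly above and partly below the array median. In these bulk arrays fewer cells of a type and less RNA per cell cannot be told apart. Of 17 B cell genes on the array 4 passed the filter, the summed signal was 7486 to 18360 in KO plus, 5546 to 20880 in KO minus, 5800 to 9622 in control plus and 3547 to 10680 in control minus arrays, and the sum was mostly that of Ighm (2171 to 17894). Ighm, Cd79b (169 to 1083) and Cd72 (127 to 684) were above the array median in all 12 arrays, and Ms4a1, Ebf1 and Blk were below it in at least 11. Of the 4 genes past the filter Cd72 was called lower in KO plus arrays (-1.11), and none was called in controls. By set the sum was 3547 to 7486 in set A, 9622 to 20880 in set B and 6150 to 8027 in set C. Of 27 dendritic cell genes 16 passed, with sums of 16060 to 27200 in KO plus, 20550 to 36550 in KO minus, 14590 to 20660 in control plus and 17120 to 26120 in control minus arrays, and of 14590 to 21870 in set C. Of 18 macrophage and monocyte genes 9 passed, with sums of 28630 to 45910, 21550 to 50930, 14440 to 35300 and 15760 to 42030 in the same order of groups, with Csf1r (3997 to 25919), Lyz1, Lyz2, Ccr2, Cd68, Cd14, Cx3cr1 and Adgre1 above the array median in all 12 arrays and C1qa, C1qb, Mrc1 and Mertk below it in at least 11. Cd14, a monocyte receptor, was the only gene of that list called, higher in plus arrays at 1.85 in knockouts and 2.03 in controls. All 14 progenitor genes passed, at 29510 to 54520, 56380 to 61570, 44990 to 52570 and 55520 to 62630, with 1 called lower in KO plus arrays and 2 higher and 1 lower in control plus arrays. Of 4 T and NK cell genes past the filter 2 were called lower in KO plus and 1 in control plus arrays, of 14 neutrophil and granulocyte genes 3 in each, and of 7 erythroid genes 6 in KO plus and 5 in control plus arrays, with none higher in these 3 lists. The erythroid gene Rhag, called lower in both genotypes, passed only through the minus arrays (mean log2 value 7.63, and 6.61 in plus arrays). Without a filter its limma adjusted p was 0.0606 in knockouts and 0.0241 in controls. Among all genes 9.03% were called higher and 9.72% lower in knockouts, and 10.6% and 11.6% in controls. The part of cell makeup in the differences of the class II genes was not tested.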

How the data were processed

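RNA of 12 arrays was analysed from 1 table of linear intensity signals for 45101 probe sets, which the authors made with MAS5 (version not given), per the submitters' processing notes. All arrays had a mean of 500 after trimming 2% at each end, so the deposited scaling was kept. The supplied annotation gave 1 symbol to 34958 probe sets, several to 932, and did not list 9211. From the table log2(signal + 32) was computed, each gene was taken from its 1-symbol probe set with the highest mean, and a gene had to average at least 6.76 (a signal of 76.4), the probe sets' median, which 10583 genes did. One fit over all 12 arrays (limma 3.58.1, R 4.3.3, eBayes with trend) held the 4 groups and the naming set as a block, leaving 6 residual degrees of freedom to which the prior added 5.78. Two-sided p-values were adjusted over all genes by Benjamini-Hochberg, with a threshold of 0.05. The block was used because same-set arrays deviated together: their deviations from the group means correlated at 0.412 to 0.773 (18 pairs), against -0.641 to 0.276 for 36 pairs from different sets and groups. A second fit without the filter covered the 1-symbol probe sets. The 14 lists and the members were chosen with earlier results of these data known. Every member is named, and from each other list up to 4 genes with the smallest p in a comparison, with Irf8, Ctss and Flt3 always. The chain was tested on simulated data. An array has no counting depth, and 3 arrays per group limit the precision.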

Additional observations from a re-analysis of the deposited data

How the results depend on the processing

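All 6 members past the filter were recomputed under 27 alternatives: 3 that leave out a naming set, 12 that leave out an array and 12 others. Batf3 was called higher in control plus arrays in all 27 (1.63 to 3.13, limma adjusted p = 0.000492 to 0.0267), H2-DMa lower in controls in 26 and in knockouts in 25, H2-Ab1 in knockouts in 17 and Cd74 in knockouts in 16. Batf3 passed the filter on low signals only through the control plus arrays (mean log2 value 6.47 without them, limit 6.76). Its count of calls is therefore a description, and the alternatives include a fit with no level filter. In knockouts 3 members were called with the naming set as a block, 0 with no replicate block, 1 after adjustment for the beta-actin ratio, 1 with only the arrays compared, and 1 to 3 when a set or an array was left out. In controls 2 were called, 4 with array weights, and 1 to 3 when a set or an array was left out. With the naming set as a random block H2-Ab1 lost its call in knockouts (adjusted p = 0.0541). With the conflicting array of set B as a control, Cd74 lost its call in knockouts (1.33, adjusted p = 0.0586). Over all genes the calls ran from 298 with no replicate block to 4008 with array weights in knockouts, from 470 to 4151 in controls, and between knockouts and controls from 0 to 13 in plus and 0 to 2 in minus arrays. Several differences that were not called in any of these settings changed sign. With the beta-actin covariate H2-Aa was at -0.28 in knockouts and -0.30 in controls, and the difference between plus effects of H2-DMa was -0.022. With the mean of a gene's probe sets the knockout difference of H2-Ab1 in plus arrays was -0.17, and the difference between plus effects of H2-Aa was -0.042. With array weights these were -0.054 and -0.069, H2-Eb1 was at 0.021 between knockouts and controls in plus arrays, and the difference between plus effects of H2-DMa was -0.25. With the conflicting array as a control Cd74 was at -0.039 between knockouts and controls in minus arrays. Leaving out a set or an array gave -0.075 to 0.53 for H2-Aa between control plus and control minus arrays. Between knockouts and controls it gave -0.15 to 0.19 for H2-Ab1, -0.43 to 0.064 for H2-Eb1 and -0.19 to 0.45 for H2-DMa in plus arrays, and -0.15 to 0.42 for Cd74 and -0.21 to 0.51 for Batf3 in minus arrays. In the difference between plus effects it gave -0.26 to 0.46 for H2-Aa, -0.48 to 0.29 for H2-DMa and -0.078 to 0.71 for Cd74. Leaving out arrays shows which arrays an estimate depends on, and the cause of these shifts was not tested. Signals near or below the array median (Ciita, Ccr7 and Batf3 outside control plus arrays) limit what can be measured.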
